A study of Mus musculus with 4 samples.

Results

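Long intergenic noncoding RNAs (lincRNAs) were followed in Py8119, a mouse mammary cell line. Rows of the gene table with the Ensembl gene type lincRNA were selected on their CPM, read counts scaled to library size, which had to be at least 1 in at least 2 of the 4 libraries. This left 217 of the 4549 lincRNA rows, in a table of 50600 rows. Of the other lincRNA rows, 3433 were listed at 0 in every library and 899 were above 0 without meeting the rule. The rule read the same CPM values that are compared here, so the levels are a description.

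The libraries Mtss1 1 and Mtss1 2 came from Py8119 cells overexpressing Mtss1, a scaffold protein of the actin cortex and membrane. The libraries hygro 1 and hygro 2 came from Py8119 cells whose genotype is given as control. All 4 libraries share the C57BL/6 strain, the mammary gland origin, a phenotype labelled mesenchymal-like and growth in IMDM with 10% fetal bovine serum, with no treatment. The labels do not say what drove Mtss1, how the populations were derived or whether replicates were grown apart. The p-values therefore cover the difference between libraries of a kind, which may be technical only.

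Mtss1 itself read 118 and 119 CPM in the Mtss1 libraries, against 54.5 and 50.5 CPM in the hygro libraries, a 2.26-fold difference (limma adjusted p = 4.8e-15). Recovered depth was 15594209 and 16656638 reads in Mtss1 1 and 2, and 20617788 and 22081639 reads in hygro 1 and 2. One CPM was therefore worth 15.9 to 21.7 reads. Of the markers of the labelled phenotype, all 6 mesenchymal genes were measured, of which 2 were higher, 3 lower and 1 not past the test. Over all genes tested, 31.9% were higher and 34.2% lower. Twist1 read 54.8 and 50.6 CPM in the Mtss1 libraries, against 35.7 and 37.6 CPM in the hygro libraries. Zeb1, also higher, read 70.9 and 67.1 CPM in the Mtss1 libraries, against 61.5 and 61.2 CPM in the hygro libraries. Vim lay at 4010 to 4302 CPM, and S100a4 read 183 and 201 CPM in the Mtss1 libraries, against 551 and 543 CPM in the hygro libraries. Of 7 epithelial markers, Epcam, Krt5 and Cldn7 were listed at 0 in every library, whereas Krt8 read 367 and 368 CPM in the Mtss1 libraries and 562 and 608 CPM in the hygro libraries. Krt18 read 234 and 235 CPM in the Mtss1 libraries and 286 and 285 CPM in the hygro libraries. The 6 immune markers summed to at most 0.375 CPM and the 5 endothelial markers to at most 1.19 CPM in any library. Of 4 fibroblast markers, Pdgfra read 129 and 132 CPM in the Mtss1 libraries, against 191 and 196 CPM in the hygro libraries. Dcn reached at most 1.01 CPM, Lum at most 0.0595 CPM, and Dpt was listed at 0 in every library.

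A lincRNA is a long transcript without a known protein product whose gene lies apart from protein-coding genes. Some act as RNAs: Neat1 is the scaffold of paraspeckles, nuclear bodies that hold RNA-binding proteins, and Malat1 is an abundant RNA of nuclear speckles. Others are host transcripts, whose introns or exons release small nucleolar RNAs (snoRNAs), which guide chemical modification and processing of ribosomal RNA, or microRNAs. For still others the act of transcription, or a regulatory element within the gene, is what affects a neighbouring gene.

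Among the hosts, Mir17hg and Mir155hg are the transcripts that carry the best known microRNAs of the group. Mir17hg, on chromosome 14 (mm10, 115042879 to 115046727, plus strand), holds 6 annotated microRNA genes, and Mir155hg, on chromosome 16 (84703167 to 84715245, plus strand), holds 1. Their mature sequences, from RefSeq, are shown to identify what the hosts carry; the values below are of the hosts, not of the mature microRNAs. Capitals mark the seed, bases 2 to 8, through which a microRNA pairs with its targets.
mmu-miR-17-5p: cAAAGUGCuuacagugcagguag
mmu-miR-20a-5p: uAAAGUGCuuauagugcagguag
mmu-miR-18a-5p: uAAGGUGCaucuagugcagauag
mmu-miR-19a-3p: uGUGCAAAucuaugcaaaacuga
mmu-miR-19b-3p: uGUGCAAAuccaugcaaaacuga
mmu-miR-92a-3p: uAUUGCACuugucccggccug
mmu-miR-155-5p: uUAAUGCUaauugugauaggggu
In the Mir17hg cluster, miR-17-5p and miR-20a-5p shared a seed, miR-19a-3p and miR-19b-3p shared another, and miR-18a-5p and miR-92a-3p each had their own. The miR-155-5p seed differed from all of these.

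Of the 217 lincRNAs, 59 were higher and 62 lower in the Mtss1 libraries than in the hygro libraries, and 96 did not pass the test. Together 55.8% were called by limma on log2(CPM + 1) at an adjusted p under 0.05, where 66.1% of all 12510 genes tested were called (31.9% higher and 34.2% lower). Of protein-coding genes 68.3% were called. The lincRNAs were thus called no more often than genes at large. A change of at least 2-fold on this scale was reached by 13 lincRNAs that rose and 16 that fell, which is 5.99% and 7.37% of them, against 4.44% and 3.83% of all genes. These shares include genes that met the level rule through the Mtss1 or the hygro libraries only, where a difference was fixed in advance. The lincRNAs also lay lower, at a median mean CPM of 2.87, against 32.7 over all genes. Without Mtss1 1 or Mtss1 2 the count of higher lincRNAs was 37 or 32, and without hygro 1 or hygro 2 the count of lower ones was 37 or 34. The median log2 fold change was -0.02, against -0.01 over all genes, and the middle range, between the 25th and 75th percentiles, ran between -0.44 and 0.38, against -0.29 and 0.27. The groups did not overlap for 163 lincRNAs, or 75.1%, where 81.6% of all genes did not overlap. In a bulk sample, fewer cells of a type and less RNA per cell cannot be told apart.

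How a lincRNA met the rule bears on these counts. The 153 that reached 1 CPM in all 4 libraries divided into 40 higher, 40 lower and 73 not past the test, so 52.3% were called, against 65.9% of all genes that did so. The 17 that met the rule through the Mtss1 libraries only included 15 called higher, and the 18 that met it through the hygro libraries only included 15 called lower. Those 35 had to differ, and their direction is no result. The remaining 29 divided into 4 higher, 7 lower and 18 not past.

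Levels were low. The median of the lincRNAs in a library was 2.58 and 2.68 CPM in Mtss1 1 and 2, and 2.79 and 2.85 CPM in hygro 1 and 2. Below a mean of 2 CPM, 44.4% of 81 lincRNAs were called, against 48.9% of all genes of that level. At 2 to 5 CPM, 60.3% of 78 were called, against 56.1%. At 5 to 20 CPM it was 59.0% of 39, against 60.7%. At 20 CPM or more it was 78.9% of 19, against 71.8%. Read level by level, the lincRNAs lay above genes at large in 2 of the 4 ranges and below them in the other 2.

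**Figure D1:**
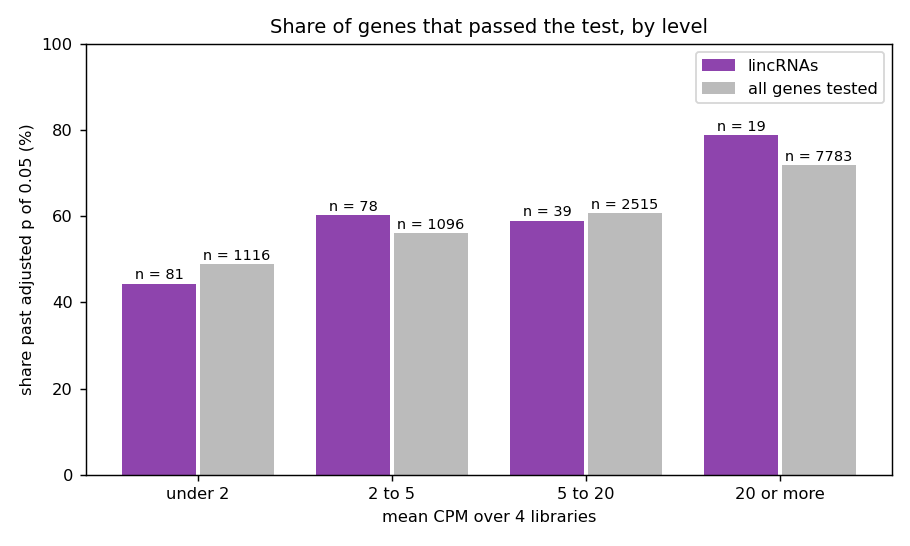
Share of lincRNAs (purple) and of all genes tested (grey) with a limma adjusted p under 0.05, in 4 ranges of mean CPM; n above a bar is the number of genes in it. The share is lowest under 2 CPM and highest at 20 CPM or more, where it is 78.9% for the lincRNAs and 71.8% for all genes.

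**Figure D2:**
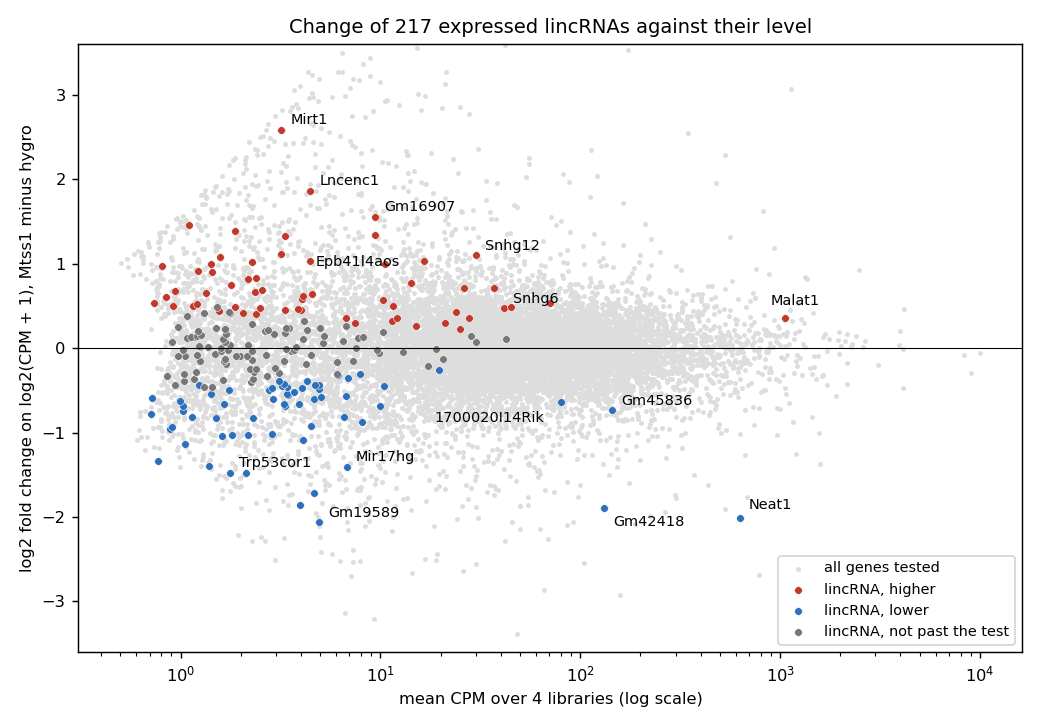
Log2 fold change on log2(CPM + 1), Mtss1 minus hygro, against mean CPM over the 4 libraries (log scale), for all genes tested (light grey) and for the 217 lincRNAs, coloured by call. Neat1 and Gm42418 stand at log2 fold changes of -2.01 and -1.89 at high level, and Malat1, the most abundant, at 0.36.

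Summed over all 217 lincRNAs, the level was 3075 and 2822 CPM in the Mtss1 libraries and 3589 and 3529 CPM in the hygro libraries. Neat1 and Malat1 together made up 46.8% to 54.4% of this sum. Without Neat1, Malat1 and the neighbours Gm42418 and Gm26917, the sum was 1393 and 1401 CPM in the Mtss1 libraries and 1393 and 1371 CPM in the hygro libraries. Without these 4 genes hygro 1 lay level with Mtss1 1, and the lower total of the Mtss1 libraries was no longer seen.

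Neat1 and Malat1 are neighbours on the minus strand of chromosome 19, with 22.0 kb between them (Malat1 5795690 to 5802672, Neat1 5824708 to 5845478). Neat1 read 247 and 249 CPM in Mtss1 1 and 2, against 1008 and 1004 CPM in hygro 1 and 2. The Mtss1 mean was 0.247 times the hygro mean. On the log2 scale the change was -2.01 ± 0.03 (SE, limma adjusted p = 1.1e-22). Libraries of a group lay close together, and the groups were far apart. Malat1 went the other way. It read 1320 and 1071 CPM in the Mtss1 libraries, against 937 and 914 CPM in the hygro libraries, a log2 fold change of 0.36 ± 0.06 (SE, limma adjusted p = 6.3e-06). The Mtss1 libraries were both above the hygro libraries but differed from each other by more than the lower of them exceeded hygro 1. Without Mtss1 1 the log2 fold change was 0.21 (limma adjusted p = 0.00026). Per kilobase of annotated exon, Malat1 was at 171 CPM in the Mtss1 libraries and 133 CPM in the hygro libraries, and Neat1 was at 11.95 CPM in the Mtss1 libraries and 48.4 CPM in the hygro libraries. The protein-coding gene with the nearest start to Neat1, Frmd8, was lower by much less, with a log2 fold change of -0.37.

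Paraspeckles form when Neat1 binds a set of RNA-binding proteins. Of 10 genes for such proteins, 8 were lower, none was higher, and 2 did not pass the test, with a median log2 fold change of -0.28 against -0.01 over all genes. The shares over all genes were 34.2% lower and 31.9% higher. Sfpq, which is needed for Neat1 to accumulate, read 195 and 207 CPM in the Mtss1 libraries, against 313 and 325 CPM in the hygro libraries, a log2 fold change of -0.66. Nono, its partner, had a log2 fold change of -0.33. Pspc1 and Rbm14 stood at -0.04 and 0.02 and did not pass. The 8 changes were all smaller than that of Neat1.

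Of the lincRNAs, 8 contain an annotated snoRNA. Of these 5 were higher, none was lower and 3 did not pass the test, where 31.9% of all genes were higher and 34.2% lower. Snhg12, which holds 5 annotated snoRNAs, read 39.5 and 43.3 CPM in the Mtss1 libraries, against 19.6 and 17.99 CPM in the hygro libraries, a log2 fold change of 1.10 ± 0.08 (SE, limma adjusted p = 4.6e-11). Epb41l4aos, which holds 1, read 21.6 and 23.6 CPM in the Mtss1 libraries, against 10.1 and 10.95 CPM in the hygro libraries, a log2 fold change of 1.04. In both genes the groups were far apart relative to the gap between libraries of a group. Snhg6 read 48.8 and 47.6 CPM in the Mtss1 libraries and 34.6 CPM in each hygro library, a log2 fold change of 0.47. Snhg20 read 26.8 and 28.0 CPM in the Mtss1 libraries, against 18.9 and 21.5 CPM in the hygro libraries, a log2 fold change of 0.42. Its counts were not whole reads in 2 libraries, as happens when reads are shared with another gene. Snhg18 had 3.28 and 3.99 CPM in the Mtss1 libraries and 3.48 and 3.96 CPM in the hygro libraries. The 3 that did not pass, Snhg18 among them, had log2 fold changes between -0.03 and 0.32. Dancr, known as a host that restrains differentiation, is not among the 8 by annotation. It had 2.19 and 2.28 CPM in the Mtss1 libraries, against 2.04 and 2.62 CPM in the hygro libraries. Neither Snhg18 nor Dancr passed the test, and in both the groups overlapped.

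The lincRNA hosts belong to a wider set, much of which carries another gene type in the table. Of 16 snoRNA hosts tested, 6 of them lincRNAs, 10 were higher, 1 was lower and 5 did not pass, with a median log2 fold change of 0.39 against -0.01 over all genes. The 10 include Snhg14, which reached 1 CPM in the Mtss1 libraries only, so its direction was fixed in advance. Among all genes tested, 31.9% were higher and 34.2% lower. Gas5 read 250 and 251 CPM in the Mtss1 libraries, against 191 and 189 CPM in the hygro libraries, a log2 fold change of 0.40. Snhg17 was the 1 that fell, by 0.20 on the log2 scale. Spliced host RNAs are often degraded by nonsense-mediated decay, a pathway that removes transcripts with early stop codons. Of 14 genes of that pathway, 6 were higher, 5 lower and 3 not past, to be read against the same shares of all genes. Upf1, the central helicase of the pathway, was higher by 0.51 on the log2 scale.

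RNAs for the proteins that wrap snoRNAs into particles were mostly lower. Of 9 genes for core snoRNA-protein subunits, 8 were lower and 1 did not pass, with a median log2 fold change of -0.30 against -0.01 over all genes. Nop56 read 113 and 112 CPM in the Mtss1 libraries, against 187 and 195 CPM in the hygro libraries, a log2 fold change of -0.76. Nop58 stood at -0.74, and Dkc1, the pseudouridine synthase, at -0.72. Of 10 assembly factors, 1 was higher, 5 were lower and 4 did not pass. Of 15 genes of the nuclear RNA exosome and its adaptors, which trim and degrade such RNAs, 1 was higher, 9 were lower and 5 did not pass. These counts stand against 34.2% lower and 31.9% higher among all genes tested, and 71.8% called at a mean of 20 CPM or more.

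**Figure D3:**
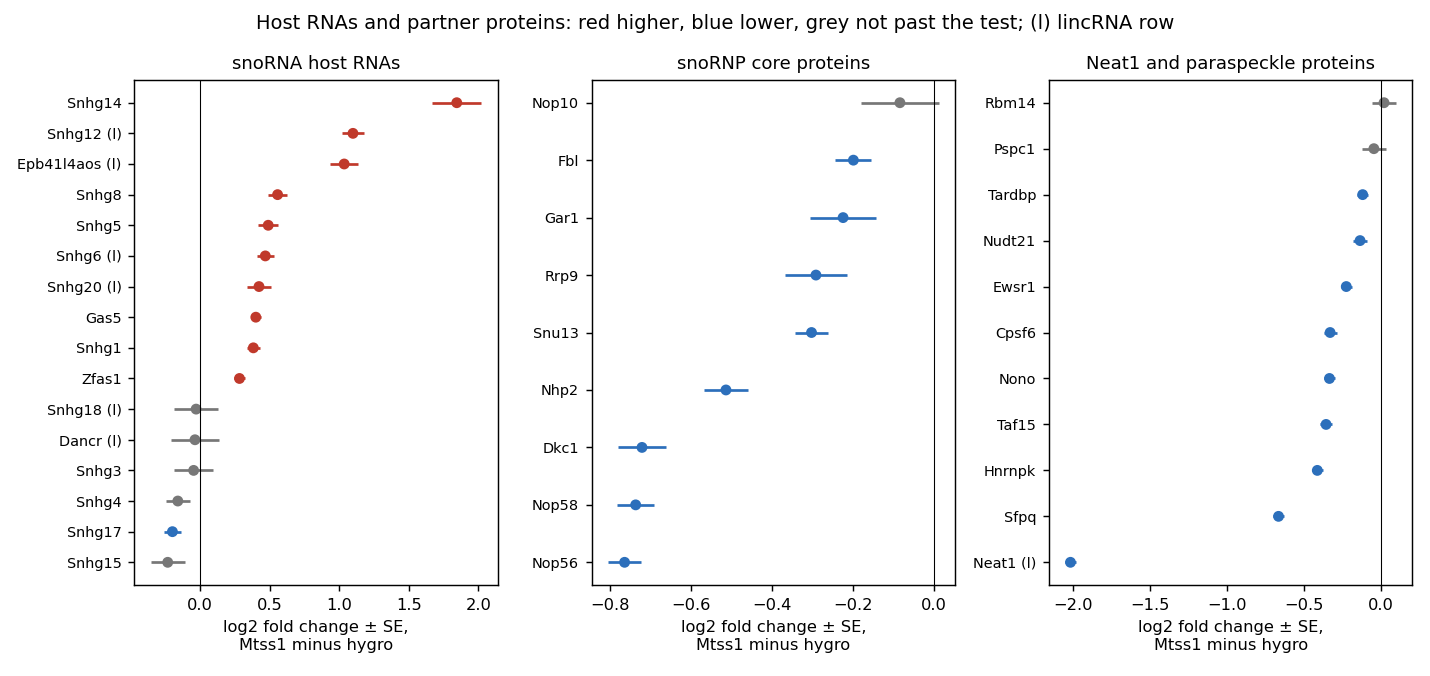
Log2 fold change ± SE, Mtss1 minus hygro, of snoRNA host RNAs, snoRNP core proteins, and Neat1 with the paraspeckle proteins; red is higher, blue lower, grey not past the test, and (l) marks a lincRNA row. Of the hosts 10 of 16 lie above 0 as calls, whereas 8 of 9 core proteins and 8 of 10 paraspeckle proteins lie below 0 as calls. Snhg14, 1 of the 10, reached 1 CPM in the Mtss1 libraries only, so its direction was fixed in advance. Among all genes tested, 31.9% were higher and 34.2% lower.

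Of the 10 lincRNAs that contain an annotated microRNA, 4 were higher, 3 lower and 3 not past, near the 31.9% and 34.2% of all genes. The 4 include Mir155hg, whose direction the level rule fixed, and Snhg20, which also holds a snoRNA and was counted there too. Mir17hg read 3.15 and 3.39 CPM in Mtss1 1 and 2, against 11.1 and 9.62 CPM in hygro 1 and 2, a log2 fold change of -1.41 ± 0.14 (SE, limma adjusted p = 9.2e-09). The groups were well apart, and the mean in the Mtss1 libraries was 0.316 times that of the hygro libraries. Its microRNAs promote proliferation, and the host is a known target of Myc, whose own RNA read 192 and 191 CPM in the Mtss1 libraries, against 219 CPM in each hygro library. Mir155hg read 1.76 and 3.27 CPM in the Mtss1 libraries, against 0.441 and 0.828 CPM in the hygro libraries. It met the level rule through the Mtss1 libraries only, so its log2 fold change of 1.08 is given as a description. Its microRNA is known from immune and inflammatory responses. Ftx, which holds Mir421 and Mir374b, and E130102H24Rik, which holds Mir101a, had log2 fold changes of -0.48 and -0.56. The host of the let-7 cluster, 6720427I07Rik, had one of 0.30. Of 9 genes for microRNA processing proteins tested, 3 were higher, 5 lower and 1 not past, against the 31.9% and 34.2% of all genes. Drosha, which cuts the hairpin out of the host, read 112 and 121 CPM in the Mtss1 libraries, against 164 and 162 CPM in the hygro libraries.

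Further lincRNAs with a curated symbol are known from particular tissues or as partners of a neighbour. Of the 25 curated symbols in all, 12 were higher, 7 lower and 6 not past the test, against 31.9% higher and 34.2% lower of all genes. The 12 include Mirt1 and Mir155hg, and the 7 include Trp53cor1 and Jpx, whose directions the level rule fixed. Mirt1, described after myocardial infarction in mice, read 7.56 and 4.82 CPM in the Mtss1 libraries, against 0.0490 and 0.322 CPM in the hygro libraries. Its log2 fold change of 2.58 was the largest of the rises among the lincRNAs, and it met the rule through the Mtss1 libraries only. Lncenc1, an RNA of mouse embryonic stem cells, read 7.82 and 7.26 CPM in the Mtss1 libraries, against 1.62 and 1.10 CPM in the hygro libraries, with all 4 libraries above 1 CPM, and its log2 fold change was 1.86 ± 0.16 (SE, limma adjusted p = 1.3e-09). Of the protein-coding genes with the nearest start, Dusp5, for Mirt1, had a log2 fold change of -0.11 and Enc1, for Lncenc1, one of 0.02, and neither passed the test.

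Trp53cor1, known as lincRNA-p21 and induced by p53, read 0.441 and 0.476 CPM in the Mtss1 libraries, against 3.48 and 2.67 CPM in the hygro libraries. It met the rule through the hygro libraries only, and its log2 fold change of -1.47 is a description. It lies 11.8 kb from Cdkn1a, the p53-induced cell cycle inhibitor p21, which read 11.5 and 11.3 CPM in the Mtss1 libraries and 21.3 and 21.7 CPM in the hygro libraries, a log2 fold change of -0.86 (limma adjusted p = 7.7e-08). Lockd, transcribed downstream of the inhibitor gene Cdkn1b, read 16.7 and 16.5 CPM in the Mtss1 libraries, against 12.8 and 14.5 CPM in the hygro libraries, a log2 fold change of 0.27, and Cdkn1b had one of 0.26. The call on Lockd was lost without Mtss1 1, without Mtss1 2 or without hygro 1 (limma adjusted p of 0.083, 0.063 and 0.23) and kept without hygro 2 (0.015). Pvt1 was higher by 0.35 on the log2 scale, and Myc, whose gene it adjoins, was lower by 0.19. Its counts were not whole reads in 3 libraries. Ptgs2os2 starts 64.9 kb from the start of the cyclooxygenase gene Ptgs2, on the opposite strand. It read 2.90 and 2.68 CPM in the Mtss1 libraries, against 6.52 and 5.84 CPM in the hygro libraries, a log2 fold change of -0.92. Ptgs2 had one of 0.51, in the other direction. Gdap10 was higher by 0.36 while Nampt, which it overlaps on the same strand, was at -0.33. Without Mtss1 1 the call on Gdap10 was lost, at a log2 fold change of 0.22 (limma adjusted p = 0.17).

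Jpx and Ftx, from the centre on the X chromosome that controls Xist, were both lower. Jpx read 0.378 and 0.714 CPM in the Mtss1 libraries, against 2.20 and 1.29 CPM in the hygro libraries, and met the rule through the hygro libraries only. Ftx read 3.66 and 4.23 CPM in the Mtss1 libraries, against 6.44 and 5.38 CPM in the hygro libraries, a log2 fold change of -0.48, and its call was lost without Mtss1 1 or without hygro 1 (limma adjusted p of 0.058 and 0.11). Xist did not reach 1 CPM in any library. Bvht, a heart lineage RNA, read 0.945 and 1.67 CPM in the Mtss1 libraries and 2.16 and 2.26 CPM in the hygro libraries. Its log2 fold change of -0.49 was no longer called without Mtss1 1, hygro 1 or hygro 2. Gpr137b-ps, which M21 of the GENCODE annotation types as a pseudogene, read 49.6 and 42.7 CPM in the Mtss1 libraries, against 25.6 and 29.8 CPM in the hygro libraries, with reads that may be shared with its parent gene.

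**Figure D4:**
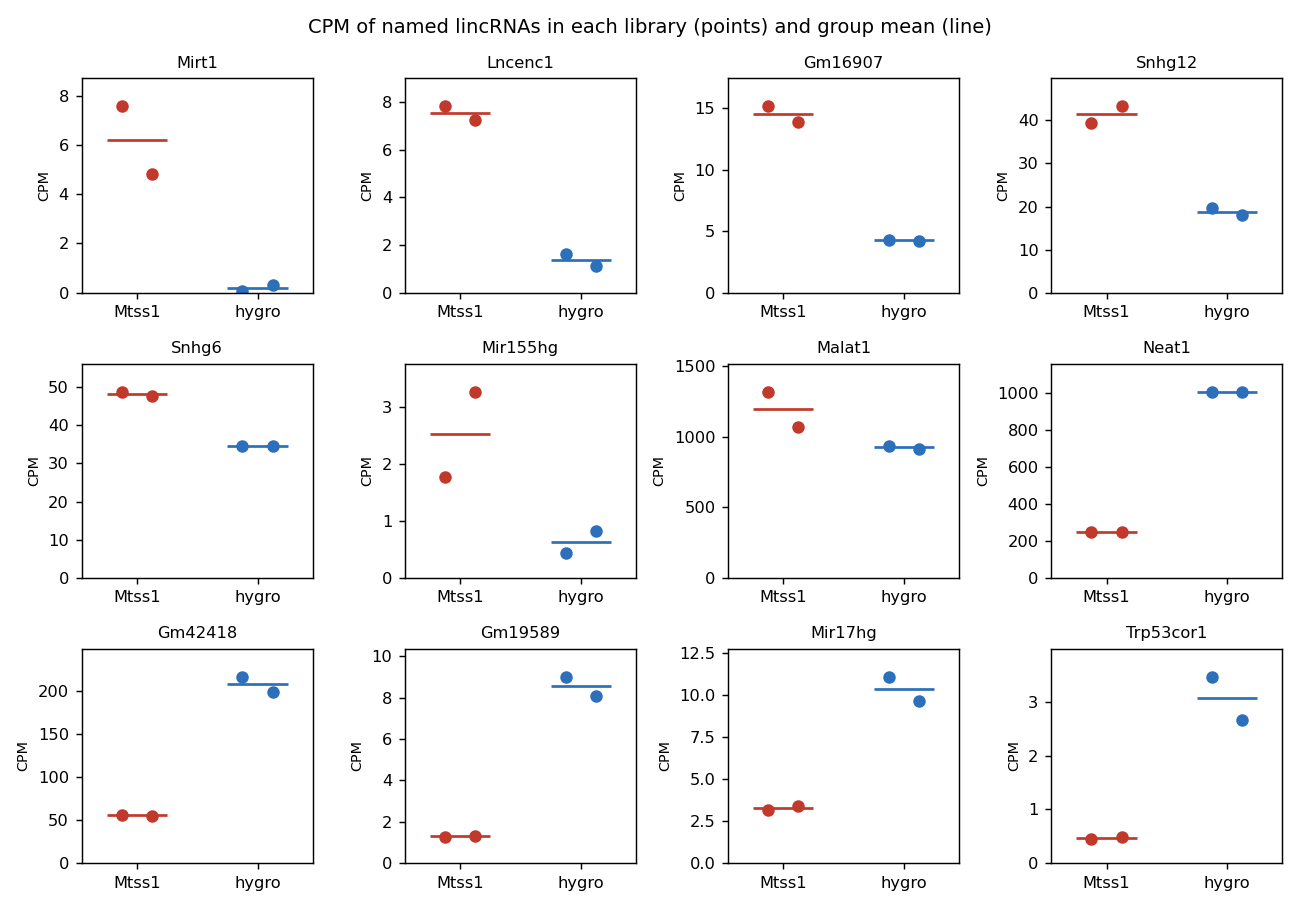
CPM of 12 named lincRNAs in each library (points) with the mean of the group (line), Mtss1 in red on the left and hygro in blue on the right; each axis starts at 0 and has its own scale. The panels show called lincRNAs whose groups do not overlap, so the separation comes from the choice and is no result. Mirt1, Mir155hg and Trp53cor1 also met the level rule through the Mtss1 or the hygro libraries only. Neat1 lies at 247 and 249 CPM in the Mtss1 libraries and 1008 and 1004 CPM in the hygro libraries.

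The lincRNAs without a curated symbol numbered 192, of which 47 were higher, 55 lower and 90 not past. Over all genes tested, 31.9% were higher and 34.2% lower. Gm16907, on chromosome 13, where it overlaps Fancc, read 15.1 and 13.9 CPM in the Mtss1 libraries, against 4.31 and 4.23 CPM in the hygro libraries, a log2 fold change of 1.55. Gm26724, typed as antisense in M21 and overlapping Lemd2 on the other strand, read 15.7 and 12.1 CPM in the Mtss1 libraries, against 4.90 and 4.83 CPM in the hygro libraries, a log2 fold change of 1.34. Lemd2 was higher too, by 0.69. The strand of counting is not stated, so reads of the overlapping genes cannot be told apart. 9330102E08Rik read 5.36 and 4.999 CPM in the Mtss1 libraries, against 1.71 and 1.24 CPM in the hygro libraries, and Tspan9, whose start lies 40.2 kb away, was higher by 0.99. Gm26825 read 6.69 and 2.95 CPM in the Mtss1 libraries, against 1.24 and 1.89 CPM in the hygro libraries, and the Mtss1 libraries differed more from each other than the lower of them did from hygro 2. Its log2 fold change of 1.11 was 0.64 without Mtss1 1 (limma adjusted p = 0.023).

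Among the lower ones, Gm19589 on chromosome 1 (88551517 to 88562167, plus strand) had the largest fall of the lincRNAs. It read 1.26 and 1.31 CPM in the Mtss1 libraries, against 9.01 and 8.10 CPM in the hygro libraries, a log2 fold change of -2.06 ± 0.16 (SE, limma adjusted p = 9.8e-11). Gm45818 read 1.39 and 1.904 CPM in the Mtss1 libraries, against 7.25 and 8.05 CPM in the hygro libraries, a log2 fold change of -1.71 ± 0.16 (SE). Gm43878 read 0.882 and 0.417 CPM in the Mtss1 libraries and 4.31 and 2.90 CPM in the hygro libraries, and met the rule through the hygro libraries only. Gm26735 read 0 and 2.41 CPM in the Mtss1 libraries, against 10.5 and 2.90 CPM in the hygro libraries, with counts that were not whole reads in 3 libraries. Its log2 fold change of -1.86 had an SE of 0.39, and without a filter on low values the call was lost (adjusted p = 0.093). It was -0.97 without Mtss1 1 and -1.08 without hygro 1. E330013P04Rik was listed at 0 in both Mtss1 libraries and read 1.27 and 1.79 CPM in the hygro libraries, at least 16.7-fold lower against a floor of 3 reads over the Mtss1 group. It met the rule through the hygro libraries only, so its fall is a description, and it was named after its values were seen. At high level, Gm45836 read 112 and 104 CPM in the Mtss1 libraries, against 187 and 175 CPM in the hygro libraries, a log2 fold change of -0.74, and 1700020I14Rik read 63.1 and 60.9 CPM in the Mtss1 libraries, against 102 and 92.7 CPM in the hygro libraries, one of -0.64. The 179 lincRNAs outside the named set included 41 higher and 48 lower, against 31.9% higher and 34.2% lower of all genes. Their log2 fold changes lay between -1.40 and 1.03.

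A230006K03Rik and B230209E15Rik lie on the minus strand of chromosome 7 (61127996 to 61311721 and 61529871 to 61615327), in the interval between the imprinted genes Snrpn and Mkrn3. A230006K03Rik read 1.89 and 2.26 CPM in the Mtss1 libraries, against 0.245 and 0 CPM in the hygro libraries. B230209E15Rik read 2.71 and 3.63 CPM in the Mtss1 libraries, against 0.539 and 0.644 CPM in the hygro libraries. Both met the rule through the Mtss1 libraries only, so their log2 fold changes of 1.46 and 1.38 are a description. Other genes of the interval were looked up after these values were seen. Snrpn, a splicing protein gene read from the paternal copy, had 27.1 and 27.5 CPM in the Mtss1 libraries, against 1.13 and 0.736 CPM in the hygro libraries, a log2 fold change of 3.88 ± 0.14 (SE, limma adjusted p = 2.1e-16). The snoRNA host Snhg14, which continues from it, had 4.80 and 6.42 CPM in the Mtss1 libraries, against 0.883 and 0.771 CPM in the hygro libraries, a log2 fold change of 1.84, with shared reads in 4 libraries. Ube3a, beyond it, stood at -0.04 and did not pass, and Mkrn3, at the other side, was lower by 0.87. A230006K03Rik lies 988 kb from Snrpn. Gm38393, which overlaps Snrpn, read 3.73 and 3.40 CPM in the Mtss1 libraries, against 0.147 and 0.138 CPM in the hygro libraries. Snhg14 and Gm38393 reached 1 CPM in the Mtss1 libraries only, so their direction was fixed in advance too.

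Gm42418 and Gm26917 lie at the ribosomal RNA locus of chromosome 17, with 617 bases between them. Gm42418 (39846958 to 39848788, plus strand) read 56.1 and 54.7 CPM in the Mtss1 libraries, against 217 and 200 CPM in the hygro libraries, a log2 fold change of -1.89 ± 0.05 (SE, limma adjusted p = 2.8e-19). Per kilobase of exon it was at 30.3 CPM in the Mtss1 libraries and 114 CPM in the hygro libraries. The row overlaps the rRNA row Rn18s-rs5 on the opposite strand, its counts were not whole reads in any library, and Rn18s-rs5 itself was at 295 and 276 CPM in the Mtss1 libraries and 323 and 365 CPM in the hygro libraries. Gm26917, next to it, read 59.5 and 45.6 CPM in the Mtss1 libraries, against 33.8 and 40.6 CPM in the hygro libraries, a log2 fold change of 0.48. Mitochondrial rRNA rows summed to 397 and 425 CPM in the Mtss1 libraries and 240 and 238 CPM in the hygro libraries. The part of residual ribosomal RNA in these values was not tested.

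By annotation, not every row was intergenic. GENCODE M21 matched 214 of the 217 rows, and typed 188 as lincRNA, 13 as antisense, 6 as bidirectional promoter RNA and 4 as processed transcript. Of the matched rows, 75 overlapped a protein-coding gene, and 53.3% of these were called. The other 139 overlapped none, and 57.6% of these were called. Of the rows, 52 started head to head with a protein-coding gene, meaning within 1 kb on opposite strands. Of these 9 were higher, 12 lower and 31 not past, so 40.4% were called, against 61.1% of the 162 that were not head to head. No test was made of that difference.

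For 51 head-to-head pairs both genes were tested, and in 17 both were called, 10 in the same direction and 7 in opposite ones. Snhg18, at -0.03, did not pass the test. It starts head to head with Sema5a, a semaphorin of axon guidance, which read 107 and 112 CPM in the Mtss1 libraries, against 425 and 421 CPM in the hygro libraries, a log2 fold change of -1.94. Where the nearest protein-coding start lay within 50 kb and was not head to head, 93 pairs were tested, 38 had both genes called and 29 of these moved the same way. In the 64 of these pairs whose gene bodies lie apart, 27 had both called and 21 moved the same way. Beyond 50 kb, 13 of 29 pairs had both called and 10 moved the same way. Pearson's r across pairs was 0.27 head to head, 0.46 within 50 kb and 0.06 beyond. Spearman's rank correlation was 0.25, 0.35 and 0.17 in the same order. These values are a description, since the genes share libraries and, in part, chromosomal neighbourhoods and reads. The pairs and their counts also include lincRNAs whose direction the level rule fixed, such as Trp53cor1 and Gm43878. They also include neighbours tested through the libraries of 1 group only, such as Cyp2s1.

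**Figure D5:**
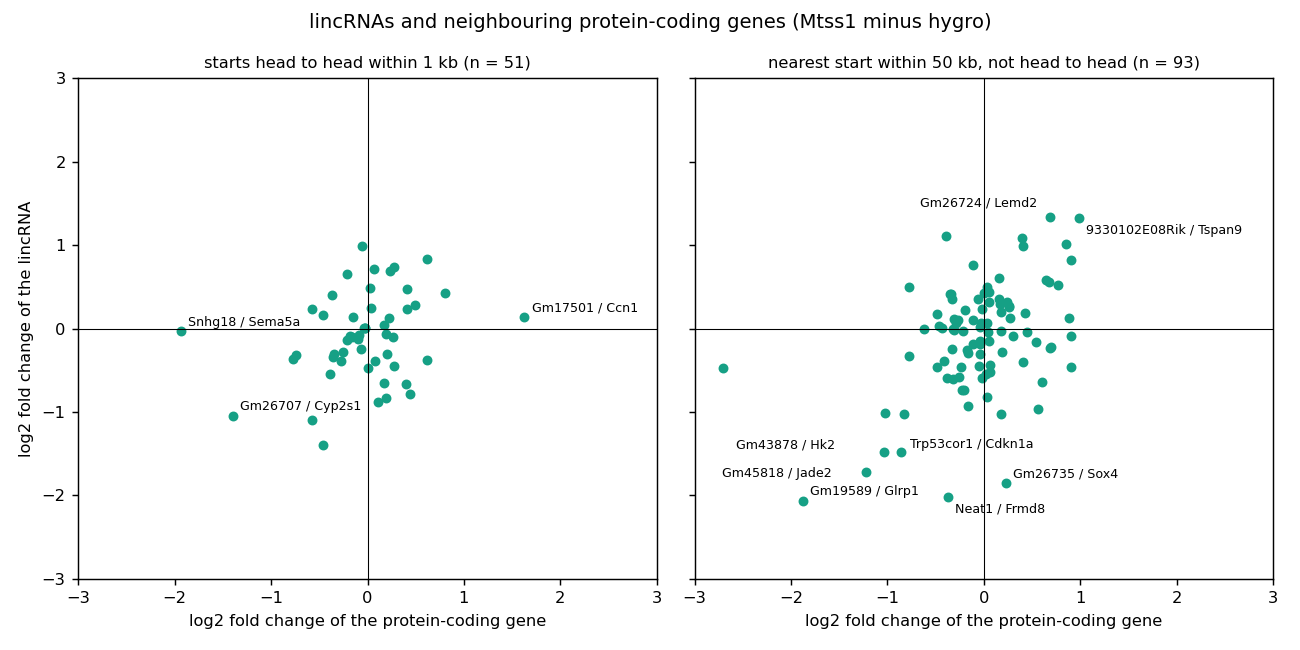
Log2 fold change of a lincRNA against that of its protein-coding neighbour (Mtss1 minus hygro), for 51 head-to-head pairs on the left and 93 pairs with the nearest start within 50 kb on the right. Gm19589 with Glrp1 and Gm45818 with Jade2 lie far down to the left, and Snhg18 lies on the zero line while Sema5a stands at -1.94.

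At 5 places a lincRNA and its neighbour both had log2 fold changes under -1. Gm19589 stands 41.5 kb from the start of Glrp1, which read 2.02 and 1.79 CPM in the Mtss1 libraries, against 10.1 and 9.16 CPM in the hygro libraries, a log2 fold change of -1.88. The start of Gm45818 lies 41.3 kb from that of Jade2, a chromatin factor, which had 27.5 and 25.5 CPM in the Mtss1 libraries, against 61.4 and 64.9 CPM in the hygro libraries, a log2 fold change of -1.22. The start of Gm43878, whose fall the level rule fixed, lies 48.8 kb from that of Hk2, hexokinase of glycolysis, which had 97.9 and 104 CPM in the Mtss1 libraries, against 208 CPM in each hygro library, a log2 fold change of -1.04. Gm26707 and Cyp2s1, which start head to head, stood at -1.05 and -1.40, and Gm26792 and Cuedc2 at -1.01 and -1.03. These pairs were named after their values were seen. Cyp2s1 read 0.504 and 0.655 CPM in the Mtss1 libraries, against 2.94 and 3.41 CPM in the hygro libraries. It was tested through the hygro libraries only, so its fall was fixed in advance too. Gm26735 overlaps Sox4 on the other strand, and Sox4 was higher by 0.23.

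The level per length gave another order. By mean CPM per kilobase of exon, Malat1 came first at 152, then Gm42418 at 72.1, Epb41l4aos at 38.5, Snhg6 at 36.1 and Neat1 at 30.2. The order is over the mean of the 4 libraries, and Gm42418 and Neat1 differed strongly between the groups. Gm42418, at 30.3 CPM per kilobase in the Mtss1 libraries, stood below Epb41l4aos and Snhg6 there, and at 114 in the hygro libraries it stood above both. In the Mtss1 libraries alone, Neat1 at 11.95 CPM per kilobase stood below Epb41l4aos at 52.6 and Snhg6 at 42.1, and in the hygro libraries, at 48.4, it stood above both, at 24.5 and 30.2.

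Promoter windows, from 250 bases before to 50 after the start, were available in RefSeq for 110 lincRNAs, in 124 windows. CpG dinucleotides numbered 11 in the median window, against 7 over 32851 windows of all genes. The median was 12 in 32 windows of lincRNAs that were higher, 8 in 39 of those lower and 14 in 53 of those not past. The motif CCAAT was in 43.5% of the windows, against 37.4% of all, TATAAA in 9.68%, against 13.6%, CACGTG in 9.68%, against 7.15%, and TGACGTCA in 4.84%, against 1.79%. The kappa B consensus was in 1.61%, against 4.51%. All were searched on both strands. Shown are 4 windows (GRCm38.p6), from 2 hosts with many CpG and from the 2 curated lincRNAs with the largest rises, which have few. They stand 5′ to 3′ along the transcript, and capitals mark CpG.
Snhg12, chr4:132308428-132308727, plus strand: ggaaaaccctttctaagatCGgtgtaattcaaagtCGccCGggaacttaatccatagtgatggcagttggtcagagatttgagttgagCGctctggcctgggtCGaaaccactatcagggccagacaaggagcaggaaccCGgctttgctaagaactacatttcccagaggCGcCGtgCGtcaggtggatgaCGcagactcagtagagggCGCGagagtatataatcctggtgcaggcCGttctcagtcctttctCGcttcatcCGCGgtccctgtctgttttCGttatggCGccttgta
Snhg20, chr11:117076533-117076832, plus strand: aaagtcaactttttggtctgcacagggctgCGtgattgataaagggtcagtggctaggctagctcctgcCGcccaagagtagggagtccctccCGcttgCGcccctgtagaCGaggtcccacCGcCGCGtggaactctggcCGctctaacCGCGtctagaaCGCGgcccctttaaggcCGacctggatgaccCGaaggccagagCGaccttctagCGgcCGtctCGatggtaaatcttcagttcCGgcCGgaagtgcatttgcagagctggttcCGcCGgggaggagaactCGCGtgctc
Lncenc1, chr13:97434720-97435019, plus strand: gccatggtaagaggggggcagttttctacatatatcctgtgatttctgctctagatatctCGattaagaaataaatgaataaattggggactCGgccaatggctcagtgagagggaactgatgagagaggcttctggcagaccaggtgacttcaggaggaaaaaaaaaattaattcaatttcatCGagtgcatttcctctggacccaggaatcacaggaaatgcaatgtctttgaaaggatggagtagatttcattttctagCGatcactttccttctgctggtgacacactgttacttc
Mirt1, chr19:53464747-53465046, minus strand: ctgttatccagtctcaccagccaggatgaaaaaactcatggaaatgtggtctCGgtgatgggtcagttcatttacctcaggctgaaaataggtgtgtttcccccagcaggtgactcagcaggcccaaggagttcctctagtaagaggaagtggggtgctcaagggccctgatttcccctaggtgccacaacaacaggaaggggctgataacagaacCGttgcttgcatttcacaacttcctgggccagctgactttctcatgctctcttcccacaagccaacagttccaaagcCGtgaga
Snhg12 and Snhg20 held 18 and 25 CpG, and Lncenc1 and Mirt1 held 4 and 3. A match, or none, says only which letters lie in these windows.

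The threshold of 1 CPM fell within a continuous run of values. Just inside it were Gm28151, A230057D06Rik and Gm20186, with a second-highest value of 1.01, 1.01 and 1.03 CPM. Just outside were 4732491K20Rik, D630029K05Rik and Gm20735, at 0.920, 0.945 and 0.945 CPM.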

How the data were processed

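RNA was measured in 4 libraries of Py8119 cells, from Trizol total RNA read at both ends, per the labels' protocols. FastQC 0.11.2, STAR, RSEM and mm10 are named in the submitters' processing notes, without roles. The deposited CPM values sum to between 982877 and 1016225 per library; their scaling is not stated. Reads were recovered from the constant step in the values, which were whole within 0.005 read for 79.6% to 80.5% of entries.

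Genes that reached 1 CPM in 2 or more libraries were tested with limma 3.58.1 in R 4.3.3 (eBayes with trend) on log2(CPM + 1), Mtss1 minus hygro, n = 2 each, Benjamini-Hochberg adjusted over 12510 genes at 0.05. The pseudocount understates changes of low genes. Steps were tested on simulated data. Named are lincRNAs with a curated symbol, the 8 largest changes each way without overlap, and the 5 highest levels, per library and per kilobase. Neighbours, types and exon lengths are from GENCODE M21. The members and lists were chosen with earlier results of these data known. One gene of the list of paraspeckle proteins is not reported here, and the counts leave it out.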

Additional observations from a re-analysis of the deposited data

How the results depend on the processing

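The counts of 59 higher and 62 lower lincRNAs moved by over 1.5 times with the filter on low values. Without a filter 38 were higher and 34 lower, over 22310 genes tested, and with a minimum of 1 CPM in every library 39 and 40, where 41 of the 121 called lincRNAs were not tested. Leaving out 1 library gave 32 to 47 higher and 34 to 58 lower. Without Mtss1 2 or Mtss1 1 the higher count was 32 or 37, and without hygro 1 or hygro 2 the lower count was 37 or 34; in each case 15 of the 121 were no longer tested, and a lone library was assumed to vary like the other group. With pseudocounts of 0.1 and 5, median-of-ratios scaling, rescaling to a sum of 1000000, limma-voom on the recovered reads and an adjusted p of 0.01, the counts stayed within 1.5 times. Rescaling changed which direction was the more frequent. It gave 61 higher and 57 lower lincRNAs. Over all genes it gave 4362 higher and 3888 lower, against 3991 and 4282 in the main fit. The shares of 31.9% higher and 34.2% lower thus depend on the scaling. In all 14 alternatives, no called lincRNA that was tested changed sign.

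With the replicate number as a block, 62 were higher and 66 lower, and all 121 calls were kept. Over all genes 4040 were higher and 4337 lower. The numbers pair the samples by name only: deviations of Mtss1 1 and hygro 1 correlated at -0.02.

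Of 471 values under alternatives, 450 kept their direction and side of the threshold, 14 of called lincRNAs fell short of it and 7 changed sign, all in lincRNAs that did not pass the test. Snhg18 was 0.00067 after rescaling. With 1 library left out, Snhg18 ranged between -0.14 and 0.082, Fam120aos between -0.25 and 0.067, Lppos between -0.44 and 0.24, and Dancr between -0.16 and 0.089. The cause was not tested. At 15.9 to 21.7 reads per CPM, changes of lincRNAs near 1 CPM rest on few reads.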

Other observations

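The curated lincRNAs that did not pass the test included Dubr, at 13.1 and 12.5 CPM in the Mtss1 libraries and 13.5 and 12.9 CPM in the hygro libraries, Ino80dos, at 1.42 and 1.59 CPM in the Mtss1 libraries, against 2.11 and 1.61 CPM in the hygro libraries, and Fam120aos, at 1.51 and 2.08 CPM in the Mtss1 libraries, against 2.30 and 1.66 CPM in the hygro libraries. Lppos, which starts head to head with Lpp, read 2.58 and 1.25 CPM in the Mtss1 libraries and 2.11 and 1.98 CPM in the hygro libraries.

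Other noncoding classes of the table were called in 42.9% to 53.9% of rows, against 55.8% of the lincRNAs, and these shares were not tested against each other. Of 167 antisense rows tested 53.9% were called, of 13 bidirectional promoter RNAs 53.8%, of 154 processed transcripts 48.1%, of 159 TEC rows, which await experimental checks, 47.2%, and of 14 sense intronic rows 42.9%. Among studied long noncoding RNAs with another gene type, Firre read 71.2 and 70.3 CPM in the Mtss1 libraries, against 112 and 99.1 CPM in the hygro libraries, a log2 fold change of -0.57, and Crnde read 10.9 and 10.8 CPM in the Mtss1 libraries, against 5.44 and 6.44 CPM in the hygro libraries, one of 0.78. Of the imprinted list, Kcnq1ot1 was higher by 0.45 and Peg13 had a log2 fold change of -0.49, whereas H19, Meg3 and Rian did not reach 1 CPM in any library.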
